A study of Homo sapiens with 2 samples.

Results

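The 10 genes described here encode proteins of purine nucleotide supply in MDA-MB-231, a cell line established from a human breast cancer of the triple-negative type. Poly(A) RNA was sequenced from 1 library of cells given an siRNA against the long non-coding RNA USP30-AS1, called the knockdown library, and 1 library of cells given a negative control siRNA, called the control library. The series asked how gene expression differs after that siRNA. All cells were of the same line, and the labels name no further treatment, dose or time. The members were found by symbol, and all 10 were among the 20289 genes of the deposited table. They were chosen by their pathway and on measured values of this same comparison, because HPRT1 and PRPS2 stood far above their relatives. Their differences are therefore a description, and no test was made. With 1 library per group, no value has a replicate check, and an interval given with a fold covers counting error only.

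Cells obtain purine nucleotides by a pair of routes. The de novo route builds the purine ring step by step on phosphoribosyl pyrophosphate (PRPP), an activated ribose made by the PRPS synthetases, and ends at inosine monophosphate (IMP), from which AMP and GMP are made. The salvage route joins a free base to PRPP in 1 step, with HPRT1 acting on hypoxanthine and guanine and APRT on adenine, so both routes draw on the same PRPP. Loss of HPRT1 in humans causes Lesch-Nyhan syndrome, and proliferating tumour cells are known for a high demand for purines.

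The knockdown library held 19569214 counts and the control library 23287817. Counts were scaled to CPM, a count relative to the library's total, with TMM factors, and the log2 ratio was taken as knockdown over control after adding 0.5 CPM to each. Genes with a mean of at least 50 counts were compared, 11530 in all and all 10 members among them. In the knockdown library 1.55% of these genes were higher by 2-fold or more and 1.60% lower, which makes 3.16% in either direction. Their median log2 ratio was -0.00. The level of USP30-AS1 itself was not analysed here. Of 7 markers of the line, VIM and KRT18 had 43558 and 14244 counts in the knockdown library and 36576 and 10933 in the control library. The receptor genes PGR, ESR1 and ERBB2 had 0, 13 and 1127 counts in the knockdown library and 0, 9 and 1270 in the control library. Of these only ERBB2 passed the floor of 50 mean counts, at 19.3 FPKM in the knockdown library and 16.3 FPKM in the control library. Receptor protein was not examined here. EPCAM had 47 counts in the knockdown library and 49 in the control library. CD44 had 7554 in the knockdown library and 3647 in the control library, 2.55-fold higher (2.45 to 2.65). Of 13 markers of other cell types, 9 had at most 4 counts in either library: PTPRC, CD3E and LYZ (leukocytes), DCN, LUM and COL1A2 (fibroblasts), VWF (endothelium), and HBB and HBA1 (red cells). The other 4 were CD68, COL1A1, PECAM1 and CDH5. Summed over each whole marker list, the level was 60.3 CPM in the knockdown library and 45.0 CPM in the control library for leukocytes, 11.1 and 7.18 CPM for fibroblasts and 7.07 and 13.4 CPM for endothelium in the same order. CD68 made nearly all of the leukocyte sum (1160 counts in the knockdown library, 1060 in the control library). COL1A1 made nearly all of the fibroblast sum (213 counts in the knockdown library, 170 in the control library). The endothelial genes PECAM1 and CDH5 had 128 and 8 counts in the knockdown library and 226 and 91 in the control library, and the part of such cells or genes in the members' values was not tested. In bulk RNA, a change in every cell and a change in a part of the cells cannot be told apart.

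Of the 10 members, 2 were at least 2-fold higher in the knockdown library and 0 at least 2-fold lower. These were PRPS2 and HPRT1. The other 8 all lay within 1.5-fold, a distance that 13.1% of the compared genes exceeded. Their log2 ratios ran from -0.17 (APRT) to 0.43 (PPAT), with a median of 0.17, 5 above 0 and 3 below. Of all compared genes, 49.6% lay above 0, and the 14 reference genes described below had a median of 0.28. HPRT1 stood 1.94 and PRPS2 2.0 log2 units above the median of the other 8 members. From the highest, PRPS2 and HPRT1 ranked 8 and 10 among all compared genes.

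**Figure D1:**
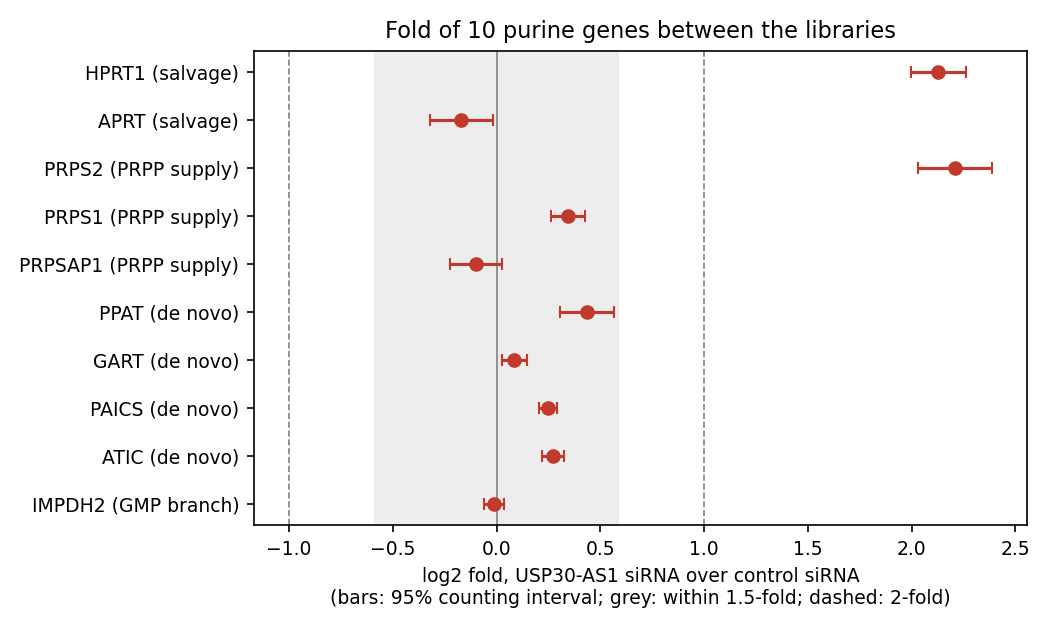
Fold of each of the 10 genes in the knockdown library over the control library, on a log2 axis. Points are folds, bars are 95% exact counting intervals, the grey band spans 1.5-fold and dashed lines mark 2-fold. HPRT1 (4.37-fold) and PRPS2 (4.62-fold) lie past the dashed line and the other 8 lie inside the band.

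HPRT1 (ENSG00000165704), the salvage enzyme for hypoxanthine and guanine, lies on the plus strand of chromosome X from 134460153 to 134520513 (GRCh38). It had 2156 counts in the knockdown library, against 607 in the control library. Scaled for depth, its level was 112 CPM in the knockdown library and 25.6 CPM in the control library. HPRT1 was thus 4.37-fold higher (95% counting interval 3.99 to 4.79), with a log2 ratio of 2.11. Per transcript length it reached 79.0 FPKM in the knockdown library, against 18.7 FPKM in the control library. By FPKM it held rank 4 among the 10 members in the knockdown library and rank 8 in the control library.

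APRT, the adenine salvage enzyme, did not share this difference. It lies on chromosome 16, minus strand, at 88809339 to 88811944, and had 625 counts in the knockdown library, against 865 in the control library. Its level was 32.5 CPM in the knockdown library and 36.5 CPM in the control library, 1.12-fold lower (1.01 to 1.25). HPRT1 made up 77.5% (Wilson interval 75.9 to 79.0) of the counts of this pair in the knockdown library and 41.2% (38.7 to 43.8) in the control library. In FPKM, HPRT1 stood at 2.02 times the level of APRT in the knockdown library, and APRT at 2.44 times the level of HPRT1 in the control library.

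Other salvage genes were closer to their control level than HPRT1. Of 8 listed, 7 were compared, 4 lay above 0 and none reached 2-fold. Their median log2 ratio was 0.16 in scaled counts and -0.27 in the deposited FPKM, so the list as a whole has no settled direction. The gene at the median, LACC1, an enzyme that acts on purine nucleosides, had 264 counts in the knockdown library and 290 in the control library, but 3.36 FPKM in the knockdown library and 4.05 FPKM in the control library. PNP, which releases hypoxanthine and guanine from their nucleosides and so supplies the bases HPRT1 uses, was the highest of them. It had 4144 counts in the knockdown library and 2777 in the control library, 1.84-fold higher (1.75 to 1.93). ADK, the adenosine kinase, was 1.37-fold higher (1.26 to 1.48), and DCK, the deoxycytidine kinase that also accepts purine deoxynucleosides, had a log2 ratio of 0.36. ADAL, a relative of adenosine deaminase, was 1.38-fold lower (1.20 to 1.58).

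PRPS2 (ENSG00000101911), one of the PRPP synthetases, lies on the plus strand of chromosome X from 12791355 to 12824222. It had 1223 counts in the knockdown library, against 326 in the control library, which is 63.6 CPM in the knockdown library and 13.8 CPM in the control library. PRPS2 was 4.62-fold higher (4.08 to 5.23), with a log2 ratio of 2.17. Its counting interval overlaps that of HPRT1, so the folds of these 2 genes do not differ beyond counting error.

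PRPS1, the close relative that catalyses the same reaction, lies on the same chromosome from 107628424 to 107651026 on the plus strand. It had 2393 counts in the knockdown library and 2321 in the control library, 1.27-fold higher (1.20 to 1.34) after scaling. PRPS2 lay 1.82 log2 units above it. In FPKM, PRPS1 was at 70.7 in the knockdown library and 58.5 in the control library, and PRPS2 at 36.0 and 7.74 in the same order. PRPS1 was the more abundant of the pair in both libraries, by 1.96 times in the knockdown library and by 7.55 times in the control library. The PRPS2 share of their joint counts was 33.8% (Wilson interval 32.3 to 35.4) in the knockdown library and 12.3% (11.1 to 13.6) in the control library. Summed over both genes, the FPKM was 106.7 in the knockdown library and 66.2 in the control library, 1.61 times as high.

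The proteins that bind these synthetases differed less. PRPSAP1, an associated protein known to hold the synthetases in a less active complex, lies on chromosome 17, minus strand, at 76309486 to 76384521. It had 907 counts in the knockdown library and 1195 in the control library, 1.07-fold lower with an interval that includes 1 (0.981 to 1.17). Its relative PRPSAP2 had 1049 counts in the knockdown library and 751 in the control library, 1.72-fold higher (1.56 to 1.89). PRPS1L1, the testis copy of PRPS1, had 0 counts in both libraries, which allows up to 0.156 CPM in the knockdown library and 0.127 CPM in the control library (3 counts).

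**Figure D2:**
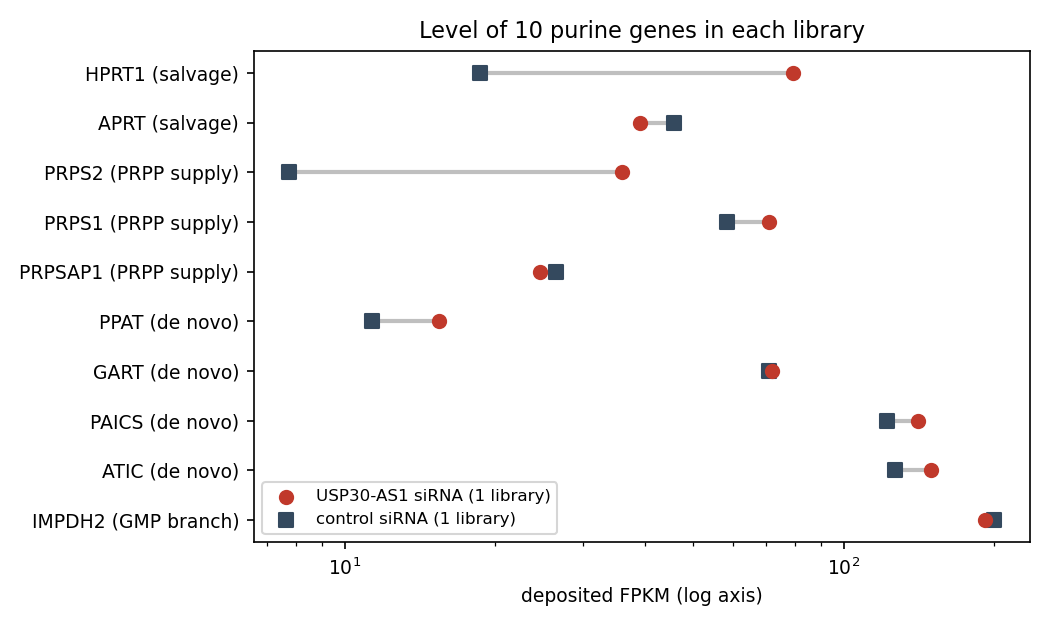
Deposited FPKM of the 10 genes on a log axis, with a red circle for the knockdown library, a dark square for the control library and a grey line joining them. HPRT1 spans 79.0 to 18.7 FPKM and PRPS2 36.0 to 7.74 FPKM from circle to square, and the circles and squares of the other 8 lie close together.

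The enzymes of the de novo route were within 1.5-fold, and most were slightly higher in the knockdown library. PPAT, the amidotransferase of the committed first step and the route's main control point, had 997 counts in the knockdown library and 908 in the control library. It was 1.35-fold higher (1.23 to 1.48), the largest fold among the 8 members other than PRPS2 and HPRT1. By FPKM it was among the least abundant members, at 15.45 in the knockdown library and 11.35 in the control library.

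GART carries out several of the steps on a single polypeptide and had 3994 counts in the knockdown library and 4631 in the control library, 1.06-fold higher (1.02 to 1.11). PAICS, a bifunctional enzyme further along, had 7894 counts in the knockdown library and 8186 in the control library, 1.19-fold higher (1.15 to 1.22). ATIC, which closes the ring and yields IMP, had 5738 counts in the knockdown library and 5854 in the control library, 1.21-fold higher (1.16 to 1.25). The intervals of PAICS and ATIC overlap each other, and that of GART lies below both. PFAS, the remaining glutamine-using enzyme of the route, was the exception in direction, with 1159 counts in the knockdown library and 1910 in the control library, 1.34-fold lower (1.24 to 1.44). ADSL, which acts both in the route and in the AMP branch, had a log2 ratio of 0.21.

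IMPDH2, the rate-limiting enzyme that turns IMP toward GMP, was the most abundant member per length in both libraries. It stood at 192 FPKM in the knockdown library and 201 FPKM in the control library, with 6236 counts in the knockdown library and 7732 in the control library. Its fold was 0.993 (0.960 to 1.03), so no difference was detectable at this depth. Its relative IMPDH1 had a log2 ratio of 0.03. The other genes of the AMP and GMP branches lay above 0 in 7 of 7 compared genes, and none reached 2-fold (median 0.17). For AMPD2 (log2 ratio 0.0012), GMPR2 (0.0063) and IMPDH1, however, the counting interval includes no difference. AMPD2 and IMPDH1 were lower in the knockdown library by the deposited FPKM, so the sign of these genes is not settled. The highest were ADSS2, which starts the AMP branch, at 1.39-fold (1.3 to 1.48), and GMPS, which completes GMP, at 1.38-fold (1.32 to 1.45), followed by the GMP reductase GMPR (log2 ratio 0.34) and the AMP deaminase AMPD3 (0.17).

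The 10 members differed among themselves in level as well as in fold. From IMPDH2 down to the lowest member, FPKM spanned 12.4-fold in the knockdown library, where PPAT was lowest, and 25.9-fold in the control library, where PRPS2 was lowest. IMPDH2, ATIC and PAICS held the first 3 places in both libraries.

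**Figure D3:**
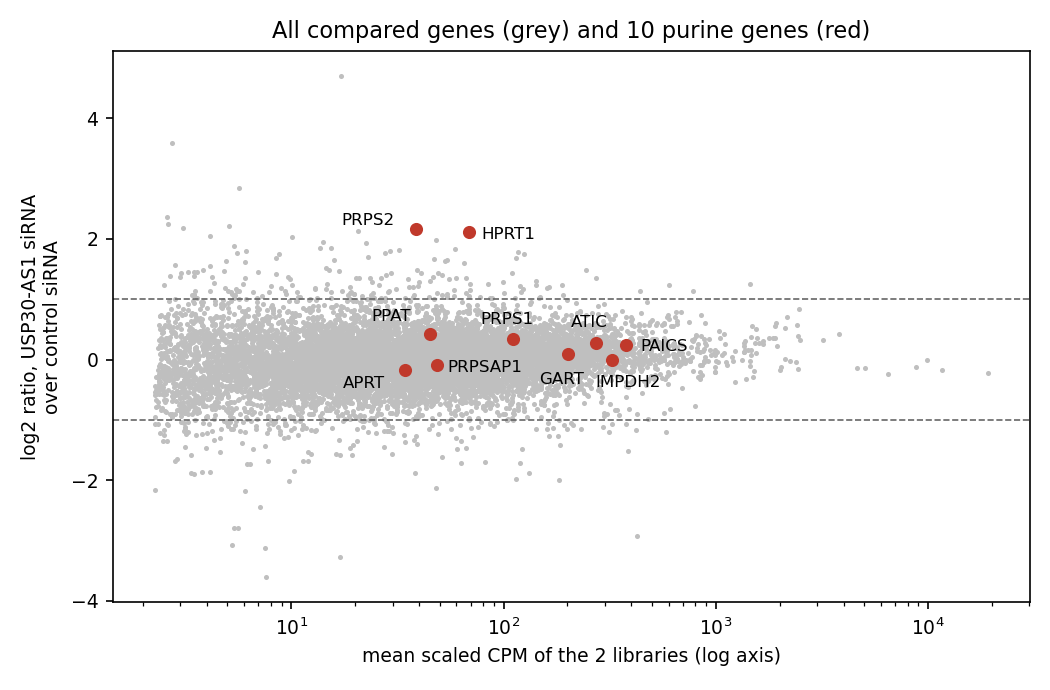
Log2 ratio of each of the 11530 compared genes (grey) against the mean scaled CPM of the 2 libraries on a log axis, with the 10 purine genes in red and dashed lines at 2-fold. HPRT1 (2.11) and PRPS2 (2.17) lie far above the upper line, and the other 8 lie within the body of the distribution.

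Genes that feed the pathway or use its products were examined by list, against a share of 49.6% above 0 over all compared genes. Nucleotide kinases, which carry monophosphates up to triphosphates, lay above 0 in 10 of 12 compared genes (median log2 ratio 0.19). Among these 10, the counting intervals of AK1 (0.0079) and GUK1 (0.047) include no difference. Of the 12, 1 was at least 2-fold higher and 0 lower, against 1.55% and 1.60% of all compared genes. That gene was AK3, the GTP-dependent adenylate kinase of the mitochondrial matrix, with 1094 counts in the knockdown library and 545 in the control library, 2.47-fold higher (2.23 to 2.74). NME6 had a log2 ratio of -0.51, NME4 of 0.39 and AK6 of 0.37. Enzymes outside the pathway that also consume PRPP were all above 0 in 3 compared genes. NAMPT, the rate-limiting enzyme of NAD salvage, had 12005 counts in the knockdown library and 7627 in the control library, 1.94-fold higher (1.88 to 1.99). NAPRT, of the nicotinic acid route to NAD, and UMPS, of pyrimidine synthesis, had log2 ratios of 0.42 and 0.31.

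Suppliers of ribose and one-carbon units lay on both sides of 0. Of 9 compared genes of ribose supply, 5 lay below 0 and none reached 2-fold. Their median was -0.03, and 0.05 with a floor of 200 mean counts. PGLS and PGD, enzymes of the oxidative pentose phosphate pathway, had log2 ratios of -0.48 and -0.37, the ribokinase RBKS of -0.63, and PGM2, which interconverts ribose phosphates, of 0.38. Of 9 compared one-carbon genes, 6 lay below 0 and none reached 2-fold (median -0.12). The exceptions at the top were MTHFD1, the cytosolic enzyme that makes the formyl folate used by GART and ATIC, 1.59-fold higher (1.52 to 1.67), and SHMT2, the mitochondrial serine hydroxymethyltransferase, at a log2 ratio of 0.48. ALDH1L2 and SHMT1 lay at -0.47 and -0.36.

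Enzymes of nucleotide breakdown lay below 0 in 10 of 13 compared genes, with a median log2 ratio of -0.22 and none at 2-fold. Among these 10, the counting intervals of ENTPD1, ITPA and NT5C include no difference. ENTPD5, ENTPD4 and NUDT1, which hydrolyse nucleoside di- and triphosphates, had log2 ratios of -0.57, -0.48 and -0.41. NT5E, the surface enzyme CD73 that makes adenosine from AMP, went the other way and was abundant, with 17447 counts in the knockdown library and 13988 in the control library, 1.54-fold higher (1.5 to 1.57). Of 5 compared transporters of nucleosides and bases, 4 lay below 0 (median -0.30), though the counting intervals of SLC29A1 and SLC29A4 include no difference. SLC29A3, SLC29A2 and SLC29A4, equilibrative nucleoside transporters, lay at -0.46, -0.38 and -0.30, and SLC43A3, which carries purine bases, at 0.42. Among 6 regulators, MYC and MTOR, known to promote purine synthesis, lay at -0.33 and -0.32, ATF4 at -0.12 and MAX at 0.41, and none reached 2-fold.

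The purine metabolism pathway of the deposited annotation is wider and includes enzymes of cyclic nucleotides. Without the members it held 79 compared genes, of which 41 lay above 0 and 38 below. Their median log2 ratio was 0.01, with 4 genes past 2-fold higher and 3 past 2-fold lower. Of all compared genes, 1.55% were past 2-fold higher and 1.60% past 2-fold lower.

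**Figure D4:**
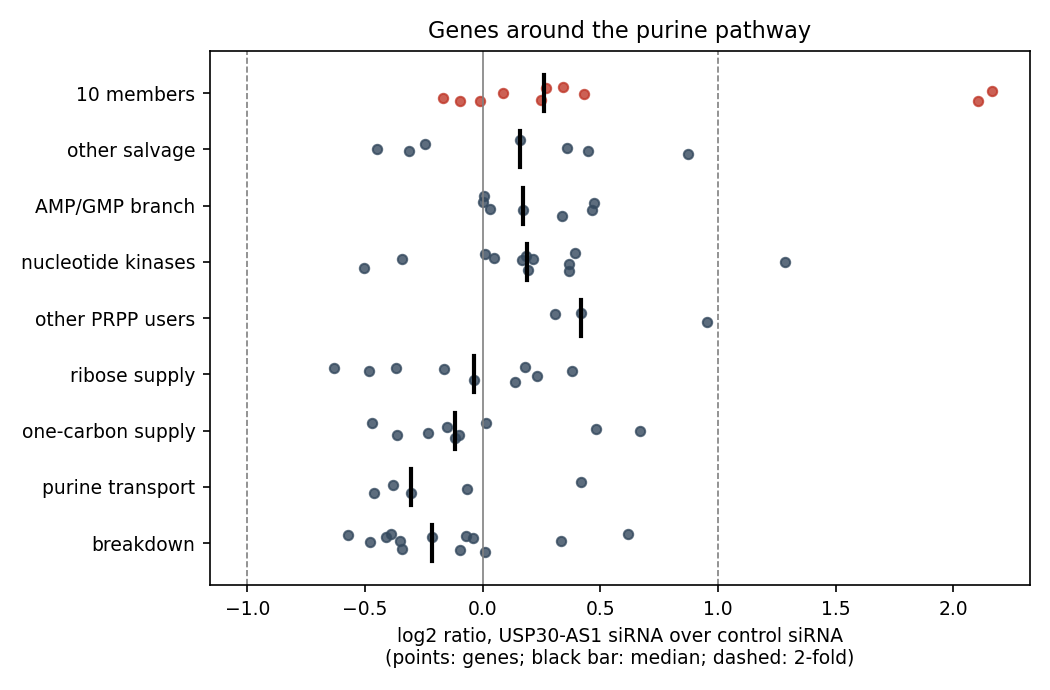
Log2 ratios of the 10 genes (red) and of the compared genes in 8 lists around the pathway (dark), 1 point per gene, with a black bar at each median and dashed lines at 2-fold. Outside the 10 members, AK3 (1.29) is past a dashed line.

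HPRT1 is also widely used as a reference gene for PCR, on the premise that its level is stable. Of 14 other common reference genes, 12 lay above 0, with a median log2 ratio of 0.28. YWHAZ, a 14-3-3 protein, had 39367 counts in the knockdown library and 20253 in the control library, 2.39-fold higher (2.35 to 2.43), and was the 1 gene of the 14 past 2-fold. The log2 ratios of B2M, TBP, SDHA and RPLP0 lay between -0.05 and 0.06. GUSB, IPO8, PPIA, POLR2A and ACTB lay between 0.21 and 0.33, GAPDH at 0.42, TFRC at 0.71 and PGK1 at 0.73. RPL13A lay lowest, at -0.28. HPRT1, at 2.11, was above all 14.

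**Figure D5:**
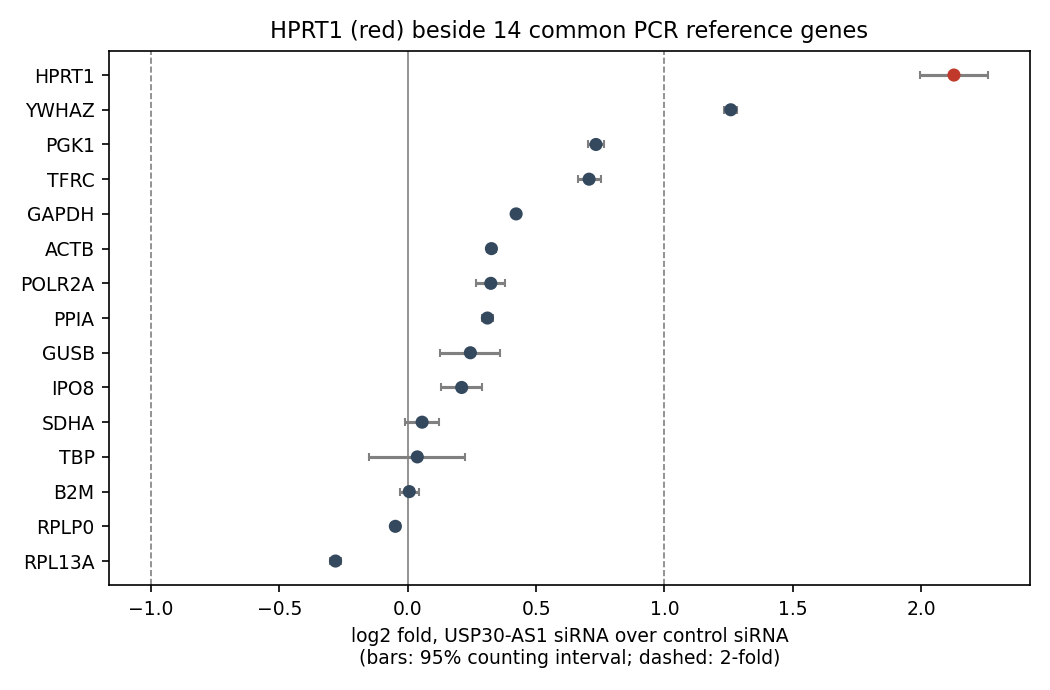
Log2 fold of HPRT1 (red) and 14 other reference genes (dark), knockdown library over control library, with 95% exact counting intervals and dashed lines at 2-fold, sorted by fold. HPRT1 lies at the top, YWHAZ next (1.26), and RPL13A at the bottom (-0.28).

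HPRT1, PRPS2 and PRPS1 all lie on chromosome X, but apart from each other. The other 387 compared genes of that chromosome had a median log2 ratio of -0.02, with 6 past 2-fold higher and 8 past 2-fold lower. The shares over all compared genes were 1.55% higher and 1.60% lower. The nearest compared genes to HPRT1, PHF6 at 31362 bases and PLAC1 at 45325 bases, had log2 ratios of 0.59 and -0.38. Those nearest to PRPS2 were far off, MSL3 (0.41) at 1015583 bases and TMSB4X (-0.09) at 150886 bases. Those nearest to PRPS1 were FRMPD3 (0.51) at 23173 bases and TSC22D3 (-0.35) at 62195 bases. FRMPD3 had only 56 counts in the knockdown library and 45 in the control library. Over all 10 members there were 18 distinct nearest compared genes that are not members, with log2 ratios from -0.40 to 0.89. Of these 0 reached 2-fold, where 3.16% of all compared genes did, so little can be read from so few genes. The highest of these, SPHK1, overlaps PRPSAP1 on the opposite strand over 7938 bases, and SON overlaps GART over 874 bases. Whether the counting used strand was not given in the sources used here, so reads in those overlaps cannot be told apart.

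PPAT and PAICS are neighbours on chromosome 4, transcribed away from each other from starts 125 bases apart. PPAT runs from 56393362 to 56435615 on the minus strand and PAICS from 56435741 to 56464579 on the plus strand. Their folds, 1.35 (1.23 to 1.48) and 1.19 (1.15 to 1.22), were both small. SRP72, the compared gene on the far side of PAICS, had a log2 ratio of 0.42, and AASDH, on the far side of PPAT, -0.40. The stretch between both starts is shown because it serves as the upstream region of the pair. It is chr4:56435616-56435740 (GRCh38.p14, RefSeq table, plus strand), with the word GGGCGG on either strand in capitals.
PPAT-PAICS interval: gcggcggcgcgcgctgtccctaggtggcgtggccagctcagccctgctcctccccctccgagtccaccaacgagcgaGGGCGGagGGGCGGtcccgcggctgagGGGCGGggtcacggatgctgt

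The 250 bases before the RefSeq start of HPRT1, PRPS2 and PRPS1 are shown because the first pair were higher by more than 4-fold. PRPS1 was only 1.27-fold higher, although it makes the same product as PRPS2. They were taken from RefSeq windows (GRCh38.p14, plus strand), at chrX:134459915-134460164, chrX:12791162-12791411 and chrX:107628260-107628509 in that order. Each window ends past the GENCODE start given above, because the RefSeq start lies further along the gene. The last GGGCGG of the PRPS1 window thus lies inside the gene as GENCODE places it. Capitals mark GGGCGG, a GC box, on either strand.
HPRT1: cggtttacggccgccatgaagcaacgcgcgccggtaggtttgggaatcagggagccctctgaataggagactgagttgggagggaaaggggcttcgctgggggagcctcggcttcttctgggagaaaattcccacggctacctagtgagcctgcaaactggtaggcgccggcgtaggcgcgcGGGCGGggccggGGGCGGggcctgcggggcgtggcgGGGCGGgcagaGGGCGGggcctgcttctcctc
PRPS2: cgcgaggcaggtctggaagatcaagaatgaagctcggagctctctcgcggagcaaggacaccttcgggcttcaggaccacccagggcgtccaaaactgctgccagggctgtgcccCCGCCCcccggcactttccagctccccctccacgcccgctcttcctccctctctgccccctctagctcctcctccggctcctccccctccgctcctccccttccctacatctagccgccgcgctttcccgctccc
PRPS1: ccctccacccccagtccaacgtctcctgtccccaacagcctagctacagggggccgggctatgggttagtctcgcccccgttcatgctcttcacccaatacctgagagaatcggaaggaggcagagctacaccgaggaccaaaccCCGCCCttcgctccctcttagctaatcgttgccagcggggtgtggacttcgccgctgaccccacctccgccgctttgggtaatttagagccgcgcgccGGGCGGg

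GGGCGG occurred 4 times in the HPRT1 window, 1 time in that of PRPS2 and 2 times in that of PRPS1. Of 34943 RefSeq windows of the same length, 42.5% hold it at least 1 time. The TATA word TATAAA, held by 10.8% of windows, was in none of these 3. CCAAT, held by 32% of windows, was in the PRPS1 window (1 match) and not in those of HPRT1 and PRPS2. CACGTG, the E-box that MYC and MAX bind, is held by 6.32% of windows and was in none of these 3. Among the 9 members with a window, it was found in those of PPAT and ATIC. Windows were searched on both strands, and no matches overlapped in the members' windows. The base composition was 68.8% G or C before HPRT1, 67.6% before PRPS2 and 63.6% before PRPS1, against a median of 58.0% over all windows.

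The 3' ends of the messages were searched for a pair of overlapping 7-base words, CCTAAGA and CTAAGAA, that earlier work on these same data had picked as over-represented in genes higher in the knockdown library. The result is thus no independent evidence. HPRT1 held 2 sites and PRPS2 held 1, in 3' UTRs of 591 and 1426 bases, and none of the other 8 members held any, over 3' UTRs of 58 bases (IMPDH2) to 5041 bases (PAICS). Of 11404 compared genes with an annotated 3' UTR, 19.0% hold either word, so 2 of 10 members is close to the share over all genes. Of those carriers 3.73% were at least 2-fold higher, against 1.11% of the genes that hold neither these words nor AACTCCA or ACTCCAA, the pair picked for lower genes. Since the words were picked on these same values, a gap in that direction was built in by the choice. PAICS holds 1 site of the pair picked for lower genes. Sites are counted from 1 at the first base after the stop codon, at positions 117 and 446 in HPRT1 and 816 in PRPS2. They are shown with flanking bases (GENCODE transcripts, GRCh38, plus strand), with the matched bases in capitals, at chrX:134500183-134500211, chrX:134500512-134500540 and chrX:12823601-12823630.
HPRT1, first site: gcatgtatcttCTAAGAAttttatctgtt
HPRT1, second site: aaagacagcatCTAAGAAgttttgttctg
PRPS2: taaatttaaagCCTAAGAAtgtatagagct

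Both HPRT1 sites carry CTAAGAA alone, whereas PRPS2 carries both words run together as 8 bases, which 3.97% of the genes with a 3' UTR do. A shared word is a description of the sequence, and whether it bears on the levels was not tested.

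Several members have copies, found here by gene name, that could draw reads away or add them. How alike the sequences are was not measured. GENCODE annotates 3 pseudogenes named for HPRT1, 7 for PAICS and 2 for PPAT, and 2 pseudogenes and PRPS1L1 for PRPS1. Of these only PRPS1L1, with 0 counts, has a row in the table, so the split of reads between HPRT1 and its copies was not tested. The deposited counts are estimates, of which 11.4% were not whole in the knockdown library and 12% in the control library, but those of all 10 members were whole in both libraries.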

How the data were processed

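The deposited table holds, per the file headers, read counts and FPKM per gene for both libraries. The counts are taken as estimated counts that the authors made before normalization, since RSEM is named in the submitters' processing notes and some values are not whole. The FPKM values were normalized by the authors, per the file headers, for length and mapped fragments. The authors' deposited log2 fold change, p-value and FDR columns were not used, since their test was not given in the sources used here. Tools listed, without roles, in the submitters' processing notes are HISAT2, RSEM, StringTie 1.3.1 and fastp 0.18.0, with the build GRCh38. Per the labels' protocols, mRNA was enriched with oligo(dT) beads. The table's columns are Si-NC and Si-179. The first matches the control label, and the second was taken as the USP30-AS1 siRNA library because the table is titled for that comparison. The meaning of 179 is unknown.

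Counts were rounded and scaled by TMM factors (0.983 knockdown, 1.017 control; edgeR 4.0.16 in R 4.3.3). Folds were computed from scaled CPM without the added 0.5 and carry 95% exact (Clopper-Pearson) counting intervals. Shares of counts carry Wilson intervals. PCR copies are not independent molecules, so all intervals cover counting error only. The log2 ratio and the counting interval were tested on simulated counts with known folds, without TMM factors and with counting error only. The gene lists, neighbours and sequence searches were not tested in that way. The alternatives were library totals alone, DESeq2 1.42.0 size factors, the deposited FPKM, a pseudocount of 2 CPM, floors of 200 and 0 mean counts, and a 1.5-fold rule. Members and gene lists were chosen with earlier results of these data known. Named genes are the members, from each list those past 2-fold and up to 4 with the largest ratios, all listed reference genes, and nearest compared neighbours. Other named genes were chosen after their values were seen. Some genes are not reported here and were left out of the lists. Coordinates come from GENCODE release 29, to which 20171 of 20289 identifiers matched, and each 3' UTR from the coding transcript where it is longest. Python 3.11.15 was used with scipy 1.17.1, numpy 2.4.6, matplotlib 3.10.9 and pandas 2.3.3.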

Additional observations from a re-analysis of the deposited data

How the results depend on the processing

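Of 136 values recomputed under the alternatives, 127 stayed within their counting interval, their list's interval or 1.5 times the count. For the smallest lists that interval is the full range of their genes, so their medians could hardly leave it. For other salvage genes it ran from -0.45 to 0.87. No member changed sign, but the median log2 ratio of 2 lists did: other salvage genes lay at -0.27 in the deposited FPKM, against 0.16, and ribose supply at 0.05 with a floor of 200 counts, against -0.03. These sign changes are counted among the 127. The log2 ratio of HPRT1 ran from 2.05 to 2.12 and that of PRPS2 from 2.06 to 2.22. Under each scaling, unit, pseudocount, floor and fold rule run, the members past the threshold numbered 2 higher and 0 lower. With library totals alone the log2 ratio was 0.20 for PAICS and -0.0591 for IMPDH2. In the deposited FPKM it was 0.20 for PAICS, 0.022 for GART and -0.0602 for IMPDH2, outside their counting intervals, with each sign kept. Of all compared genes, 118 were at least 2-fold lower with a pseudocount of 2 CPM and 111 with a floor of 200 counts, against 185. At 1.5-fold, 703 were higher and 812 lower. The larger pseudocount and the higher floor act on thinly covered genes, and no member has fewer than 326 counts. No paired analysis was possible because each group has 1 library. For the same reason no library could be left out, and the spread between cultures is unknown. Whether the differences follow from USP30-AS1, from the siRNA itself or from the culture cannot be told apart.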

Other observations

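MTAP, which salvages adenine from methylthioadenosine and so supplies the base that APRT uses, had 0 counts in both libraries. At these depths that leaves room for at most 0.156 CPM in the knockdown library and 0.127 CPM in the control library (3 counts). MTAP lies on chromosome 9 from 21802543 to 21937651 (GRCh38), beside the cell cycle inhibitors CDKN2A and CDKN2B, which also had 0 counts in both libraries. All 12 genes of the table in the region within 500 kb of MTAP, MTAP itself included, had 0 counts in both. Of these, 7 were interferon genes that most cells do not express at rest. KLHL9, an adaptor of a ubiquitin ligase, was another of the 12. Of the 20289 genes of the table, 14738 had counts above 0 in the knockdown library and 15050 in the control library. DNA was not analysed here. These genes were singled out after the value of MTAP was seen.

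Within the purine metabolism pathway of the deposited annotation, enzymes that make or break cyclic nucleotides held 5 of the 7 non-member genes past 2-fold. Over all compared genes, 3.16% were past 2-fold in either direction. Of 19 compared cyclases and phosphodiesterases, 5 lay above 0 and 14 below, with a median log2 ratio of -0.17. The cAMP phosphodiesterases PDE4B, PDE7B and PDE3B were lower in the knockdown library. PDE4B had 672 counts in the knockdown library and 1854 in the control library, 2.24-fold lower (2.05 to 2.45). PDE7B and PDE3B were 2.19-fold (2.03 to 2.36) and 2.14-fold lower (1.87 to 2.45). The adenylyl cyclase ADCY7 had 678 counts in the knockdown library and 250 in the control library, 3.34-fold higher (2.88 to 3.87), and PDE2A, a phosphodiesterase stimulated by cGMP, was 3.51-fold higher (2.75 to 4.52). The other 2 past 2-fold were AK3 and ENPP4, an ectonucleotidase relative at 2.06-fold higher (1.82 to 2.33). This grouping was made after the values were seen.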
